A study of Mus musculus with 3 samples.

Results

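The 8 genes of cell adhesion and retinal vascular disease, Cdh5, Cdh2, Ctnna1, Ctnnd1, Jup, Ilk, Rcbtb1 and Zfp408, were followed across endothelial cells (ECs), mural cells, microglia and neural cells of the developing mouse retina. They were chosen by name, as adherens junction components and genes linked to familial exudative vitreoretinopathy (FEVR), an inherited disorder in which the retinal vessels fail to reach the periphery. All 8 were found by gene symbol among the 33696 genes of the table. Their Ensembl identifiers in the files are ENSMUSG00000031871 (Cdh5), ENSMUSG00000024304 (Cdh2), ENSMUSG00000037815 (Ctnna1), ENSMUSG00000034101 (Ctnnd1), ENSMUSG00000001552 (Jup), ENSMUSG00000030890 (Ilk), ENSMUSG00000035469 (Rcbtb1) and ENSMUSG00000075040 (Zfp408). The single-cell libraries came from retinas of C57BL/6 mice at postnatal day 6, when the vascular plexus is still spreading, after enrichment with beads against CD31 (a surface protein of ECs) and CD11b (a surface protein of microglia). There was 1 library for each of 3 genotypes: wild type (WT), Tspan12 knockout (Tspan12 KO) and Ctnnb1 cKO. In the Ctnnb1 cKO, floxed Ctnnb1 was deleted by Pdgfb-iCreERT, a Cre driven by the Pdgfb promoter, which is active in ECs, after tamoxifen in the first postnatal days. Each library pooled mice of 1 genotype, and the WT retinas came from litters other than those of the knockouts. Genotype and library therefore cannot be told apart, no replicate spread exists, and both knockout comparisons share the WT library.

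The adherens junction joins neighbouring cells through cadherins, whose outer domains bind the same cadherin on the next cell and whose tails bind catenins. VE-cadherin, the product of Cdh5, is the cadherin of the endothelial junction, and N-cadherin, the product of Cdh2, is carried by neural cells, mural cells and ECs. p120-catenin (Ctnnd1) holds cadherins at the membrane, β-catenin (Ctnnb1) or plakoglobin (Jup) binds the distal tail, and α-catenin (Ctnna1) links the complex to actin. β-Catenin also carries the Norrin signal from FZD4, LRP5 and TSPAN12 to the nucleus, and losing that pathway impairs retinal vessel growth. Variants in the human counterparts of Ctnna1, Ctnnd1, Ilk (integrin-linked kinase, at integrin adhesions), Rcbtb1 and Zfp408 have been linked to FEVR or related retinal disease.

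The libraries held 9951 (WT), 14426 (Tspan12 KO) and 9151 (Ctnnb1 cKO) barcodes, and the median cell had 4974, 3166 and 2790 UMIs, the counts of distinct captured molecules. Between 21 and 37 barcodes were shared by any pair of libraries. ECs numbered 538, 282 and 2706 cells in the WT, Tspan12 KO and Ctnnb1 cKO libraries, or 5.99%, 2.21% and 32.0% of the cells kept, with median depths of 15785, 14677 and 3346 UMIs. Microglia numbered 289, 365 and 2125 cells, neural retina cells 3743, 5798 and 2056, and mural cells 13, 63 and 90. Cells of clusters that could not be named, which entered no comparison, numbered 4353, 6044 and 959, or 48.4%, 47.5% and 11.3% of the cells kept. No cluster was named as Müller glia, horizontal or ganglion cells. Neural retina cells are thus rods, cones, bipolar and amacrine cells, retinal progenitors and neurogenic precursors. The EC clusters were named from 10 EC markers, so high levels of these follow from the choice. All 10 were detected in every library and summed to between 7064 and 8623 CPM (UMIs of a gene scaled to the class total). The 10 mural markers summed to 16.2 to 31.6 CPM. Some other lists summed higher in the WT, Tspan12 KO and Ctnnb1 cKO ECs. Ganglion cell markers stood at 447, 448 and 348 CPM, and Müller glia markers at 406, 221 and 778 CPM. Retinal progenitor markers stood at 350, 524 and 446 CPM, rod markers at 214, 378 and 129 CPM, and microglial ones at 99.9, 90.2 and 307 CPM. Haemoglobin and other erythrocyte markers stood apart in the ECs of the Tspan12 KO library, at 3109 CPM against 159 in WT and 196 in the Ctnnb1 cKO. The targeted genes were not taken as a check of the genotypes, because the place of the deleted parts relative to the 3′ tags is not given in the sources used here. Ctnnb1 stood at 523, 615 and 444 CPM in the ECs of the 3 libraries, and Tspan12 at 95.9, 83.9 and 40.1 CPM.

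Levels below are CPM of the UMIs summed over the cells of a class, each with an exact Poisson 95% interval, and differences are log2 ratios of CPM against WT, each with an exact binomial 95% interval. These intervals cover counting error only. Since a 3′ tag counts molecules, levels were not divided by gene length. A gene was called higher or lower when its log2 ratio reached 0.5 in either direction, among genes with at least 50 UMIs over the libraries of that class. With 1 library per genotype no test was possible.

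In ECs, Cdh2 was lower and Jup higher in both knockout libraries, Cdh5 was higher in the Tspan12 KO, and Ilk was higher in the Ctnnb1 cKO. In the Tspan12 KO, 2 of the 8 genes were called higher, against 13.1% of all 13209 genes tested, and 1 was called lower, against 14.2%. In the Ctnnb1 cKO, 2 were called higher, against 19.5% of all genes, and 1 lower, against 30.3%. The median log2 ratio of the 8 genes was 0.03 and -0.02 in the 2 libraries, beside 0.01 and -0.12 for all genes. Scaling by the trimmed mean of M values (TMM) raised the share of higher genes among those called in Ctnnb1 cKO ECs from 39.2% to 49.6%, as the median of all genes moved from -0.12 to 0.00.

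**Figure D1:**
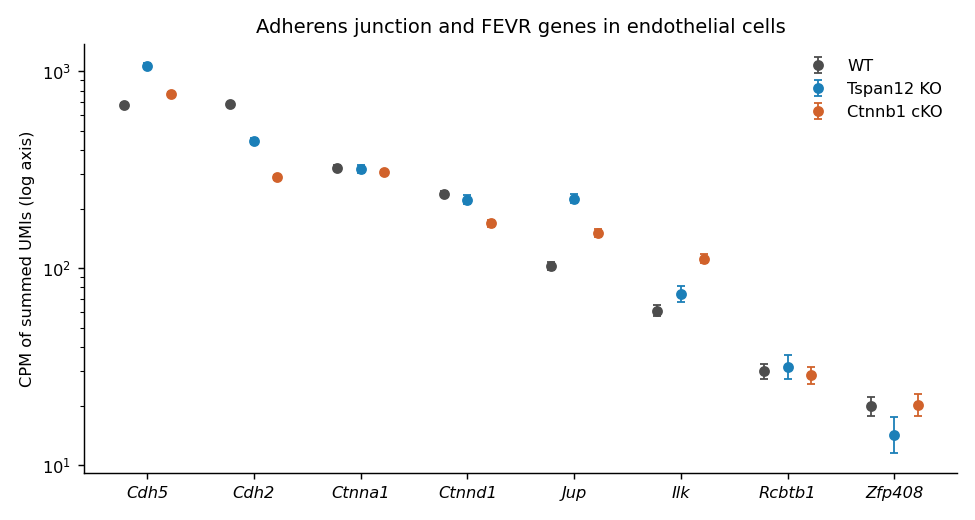
Level of each of the 8 genes in ECs, in CPM on a log axis, with 1 point per library and bars for the Poisson 95% interval. Cdh2 stands at 679.4 CPM in WT, 442.4 in the Tspan12 KO and 290.05 in the Ctnnb1 cKO, while Jup lies higher in both knockout libraries than at its WT level of 102.9 CPM.

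Cdh2 was the gene called lower in ECs of both knockouts. Its level was 679.4 CPM (666.7 to 692.2) in WT, 442.4 CPM (426.1 to 459.1) in the Tspan12 KO and 290.05 CPM (280.8 to 299.5) in the Ctnnb1 cKO. The log2 ratio was -0.62 (-0.68 to -0.56) in the Tspan12 KO and -1.23 (-1.28 to -1.17) in the Ctnnb1 cKO, and no interval of one library overlapped that of another. In the 20 Ctnnb1 cKO ECs that lay in subclusters shared with other libraries the ratio was -0.16, with no interval computed. These 20 were set against all 538 WT ECs, so the mix of subclusters was not matched. Of the 20, 9 lay in an unnamed subcluster led by Pdc, Gngt1 and Hbb-bs, and 3 capillary cells held 27 Cdh2 UMIs. Cdh2 ranked with Cdh5 in WT ECs, where 98.7% of tested genes lay below each, and stood at the 97.9 and 96.8 percentiles in the Tspan12 KO and Ctnnb1 cKO.

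The share of ECs with a Cdh2 UMI followed the same order. After each cell was thinned to 2000 UMIs, 63.3% (59.0 to 67.4) of 520 WT ECs, 53.1% (46.8 to 59.3) of 258 Tspan12 KO ECs and 37.1% (34.9 to 39.3) of 1883 Ctnnb1 cKO ECs held one. Thinning left out 18, 24 and 823 shallower cells, and the unthinned shares were 91.4%, 78.4% and 49.4%. In microglia, a class in which Cdh2 serves as the background, the thinned share was 3.31%, 6.11% and 3.26%, at median depths of 9667, 7442 and 3072 UMIs, so the EC shares lay far above it. Thinning is a random draw, and the level of Cdh2 moved with it. Among the UMIs kept, the log2 ratio in the Tspan12 KO was -0.42 (-0.63 to -0.22) in the draw behind these shares, inside the limit, and -0.70 in another draw, while its expected value over draws was -0.54, and the Ctnnb1 cKO stayed past the limit at -1.25, -1.33 and -1.31.

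Cdh2 was also lower in ECs without marker UMIs of mural cells, of rods or of microglia, each list taken in turn. In the ECs with no mural marker UMI after thinning, which were 98.1%, 96.9% and 95.6% of the thinned cells, all UMIs of these cells gave 679.1 CPM in WT, 450.0 in the Tspan12 KO and 289.1 in the Ctnnb1 cKO. Against WT this was -0.59 (-0.65 to -0.53) and -1.23 (-1.29 to -1.18) on the log2 scale. Leaving out ECs with a rod marker UMI instead gave -0.63 and -1.28, and leaving out those with a microglial one gave -0.58 and -1.21. Retinal progenitor markers, at 350, 524 and 446 CPM in the ECs of the 3 libraries, were not used to leave out cells.

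Cdh5, the defining cadherin of ECs, did not share that order. It stood at 675.6 CPM (663.0 to 688.5) in WT, 1072 CPM (1046 to 1098) in the Tspan12 KO and 770.8 CPM (755.7 to 786.2) in the Ctnnb1 cKO. The log2 ratio was 0.67 (0.62 to 0.71) in the Tspan12 KO, past the limit, and 0.19 (0.15 to 0.23) in the Ctnnb1 cKO. Thinned shares of ECs with a Cdh5 UMI were 67.3% (63.1 to 71.3), 86.0% (81.2 to 90.03) and 72.8% (70.7 to 74.8), highest in the Tspan12 KO as for the level, against 1.89%, 0.959% and 6.70% in rods, which should lack the gene. The unthinned shares in ECs were 95.5%, 94.3% and 83.6%.

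Set against each other, Cdh2 and Cdh5 gave nearly equal UMIs in WT ECs and unequal ones in both knockouts. There were 101 Cdh2 UMIs (97.9 to 103) per 100 of Cdh5 in WT, 41.3 (39.5 to 43.1) in the Tspan12 KO and 37.6 (36.2 to 39.1) in the Ctnnb1 cKO. This ratio does not depend on the total of a library. Per cell, a Cdh2 UMI was found in 62.3% of the WT ECs with a Cdh5 UMI and 65.3% of those without. The shares were 51.4% and 63.9% in the Tspan12 KO, and 33.8% (31.3 to 36.4) and 45.8% (41.4 to 50.2) in the Ctnnb1 cKO, where the intervals did not overlap.

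Jup encodes plakoglobin, the catenin that can take the place of β-catenin on the cadherin tail. Its EC level was 102.9 CPM (98.0 to 108) in WT, 225.4 CPM (213.8 to 237.4) in the Tspan12 KO and 151.6 CPM (145.0 to 158.5) in the Ctnnb1 cKO. The log2 ratio was 1.13 (1.03 to 1.23) in the Tspan12 KO and 0.56 (0.46 to 0.65) in the Ctnnb1 cKO, and the 3 intervals of the level did not overlap. The Ctnnb1 cKO ratio was 0.55 and 0.44 in 2 draws of the thinning. It was 0.43 as the expected value over draws and 0.47 as a mean of per-cell CPM. Of these only the 0.55 lay past the limit. In the 20 Ctnnb1 cKO ECs of shared subclusters, set against all 538 WT ECs, the ratio was -0.73. The 3 capillary cells among these 20 held 2 Jup UMIs. Thinned shares of ECs with a Jup UMI were 17.1% (14.0 to 20.6), 37.2% (31.3 to 43.4) and 23.8% (21.9 to 25.8), against 0.774%, 1.55% and 3.72% of rods, and unthinned shares were 71.9%, 77.3% and 38.0%. Against β-catenin, there were 19.7 Jup UMIs (18.6 to 20.7) per 100 of Ctnnb1 in WT ECs, 36.6 (34.4 to 38.9) in the Tspan12 KO and 34.2 (32.4 to 36.0) in the Ctnnb1 cKO. Ctnnb1 is the gene targeted in the Ctnnb1 cKO, where it stood at 444 CPM in ECs against 523 in WT. Its own change therefore enters the last ratio, which is not a measure of Jup alone. A Jup UMI was found at like shares in ECs with and without a Cdh2 UMI, with overlapping intervals, at 17.0% and 17.3% in WT, 38.0% and 36.4% in the Tspan12 KO, and 22.3% and 24.6% in the Ctnnb1 cKO.

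Because β-catenin acts on genes through TCF/LEF factors, whose core motif is CTTTG or CAAAG on the other strand, the windows around the start sites of the 8 genes were searched for these letters. Windows from RefSeq (build GRCm38.p6, 250 bases before to 50 from the start site) were matched for 5 of the 8 genes, Jup, Ilk, Ctnnd1, Rcbtb1 and Zfp408, with 7 windows in all. Of these, 2 held the motif, 1 of Jup (chr11:100397741-100398040, minus strand, match beginning 6 bases past the start site) and 1 of the 2 of Ctnnd1 (chr2:84650691-84650990, minus strand, match beginning 33 bases past it). It was held by 53.9% of all 32851 windows, so a match is common, and none of the sequences is shown to be a bound site. The windows of Jup and Ctnnd1 with the match, and the first of the 2 windows of Ilk (chr7:105736340-105736639, plus strand), which holds none, are shown since these genes differed most among those with a window. They read 5′ to 3′ on the gene's strand, with the motif in capitals.
Jup: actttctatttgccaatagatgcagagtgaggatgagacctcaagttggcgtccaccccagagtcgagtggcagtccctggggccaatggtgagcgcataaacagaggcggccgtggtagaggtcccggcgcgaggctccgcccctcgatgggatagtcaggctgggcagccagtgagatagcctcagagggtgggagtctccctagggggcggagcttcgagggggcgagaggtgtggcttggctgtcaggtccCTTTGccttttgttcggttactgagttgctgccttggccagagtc
Ctnnd1, second start site: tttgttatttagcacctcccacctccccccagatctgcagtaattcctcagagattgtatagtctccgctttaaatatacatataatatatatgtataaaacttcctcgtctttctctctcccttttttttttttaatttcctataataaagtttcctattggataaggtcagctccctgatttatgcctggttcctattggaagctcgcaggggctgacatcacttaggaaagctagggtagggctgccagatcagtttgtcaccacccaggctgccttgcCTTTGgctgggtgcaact
Ilk, first start site: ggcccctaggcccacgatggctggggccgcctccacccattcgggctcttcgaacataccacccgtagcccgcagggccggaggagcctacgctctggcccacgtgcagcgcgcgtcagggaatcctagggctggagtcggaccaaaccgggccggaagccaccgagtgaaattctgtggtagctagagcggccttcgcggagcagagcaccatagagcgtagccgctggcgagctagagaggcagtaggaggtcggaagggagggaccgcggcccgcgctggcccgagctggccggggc

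Ilk encodes integrin-linked kinase, which joins integrins to actin through PINCH (Lims1, Lims2) and parvin (Parva, Parvb) proteins. In ECs it stood at 60.96 CPM (57.2 to 64.9) in WT, 74.3 CPM (67.8 to 81.4) in the Tspan12 KO and 111.8 CPM (106 to 117.7) in the Ctnnb1 cKO. The log2 ratio was 0.29 (0.12 to 0.45) in the Tspan12 KO, inside the limit, and 0.87 (0.76 to 0.99) in the Ctnnb1 cKO. In the Tspan12 KO the ratio was 0.06 and -0.23 in 2 draws of the thinning and 0.16 as the expected value over draws. In the Ctnnb1 cKO these were 0.49, inside the limit, 0.58 and 0.74. Thinned to 2000 UMIs, 13.5% (10.6 to 16.7) of WT ECs, 15.1% of Tspan12 KO ECs and 18.9% (17.1 to 20.7) of Ctnnb1 cKO ECs held an Ilk UMI, a narrower order than that of the level. The unthinned shares, 63.4%, 59.9% and 34.4%, ran the other way with the depth of the libraries.

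The cytoplasmic catenins differed less. Ctnna1, which encodes αE-catenin, was nearly level at 324.3 CPM in WT, 319.9 in the Tspan12 KO and 307.5 in the Ctnnb1 cKO, with log2 ratios of -0.02 (-0.09 to 0.05) and -0.08 (-0.14 to -0.02). Ctnnd1 stood at 239.4, 222.5 and 169.4 CPM, and its log2 ratio of -0.11 (-0.19 to -0.02) in the Tspan12 KO and -0.499 (-0.58 to -0.42) in the Ctnnb1 cKO both stayed inside the limit. The second lay just past it, at -0.53, with doublets kept. It was 0.58 in the 20 Ctnnb1 cKO ECs of shared subclusters, among which 3 capillary cells held 11 Ctnnd1 UMIs. Thinned shares of ECs were 43.5%, 51.6% and 44.2% for Ctnna1 and 34.2%, 32.2% and 27.4% for Ctnnd1, and unthinned shares 90.1%, 84.0% and 58.4%, and 84.8%, 78.0% and 43.6%.

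Rcbtb1, which encodes a protein with RCC1 and BTB domains, and Zfp408, which encodes a zinc finger protein, were the lowest of the 8 in ECs. Rcbtb1 stood at 30.02, 31.5 and 28.6 CPM, giving log2 ratios of 0.07 (-0.17 to 0.31) and -0.07 (-0.27 to 0.13). Zfp408 stood at 19.9, 14.3 and 20.2 CPM, giving log2 ratios of -0.48 (-0.83 to -0.14), just inside the limit, and 0.03 (-0.22 to 0.27), and the first was 0.17 as the expected value of thinning. Thinned shares of ECs with a UMI were between 4.78% and 6.98% for Rcbtb1 and between 3.49% and 4.35% for Zfp408. For Rcbtb1 the intervals of both ratios included 0, so no difference was detectable at this depth.

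ECs fell into 12 subclusters, and most held cells of few libraries, so levels by subcluster also compare libraries. The Ctnnb1 cKO ECs took subclusters of their own, among them 1 that matched the tip cell markers (709 cells), 1 proliferative (367 cells), 1 arterial (314 cells) and 4 that were not named. WT and Tspan12 KO ECs shared a capillary subcluster (281 and 78 cells) and a proliferative one (171 and 88 cells), and 21 WT cells matched arterial markers. An unnamed subcluster held 63 Tspan12 KO and 4 Ctnnb1 cKO cells. Its Tspan12 KO cells had 1372 CPM of Cdh5 and 248 CPM of Jup, the most among subclusters with at least 20 cells of that library. The libraries were clustered together with no correction between them. Neither the 8 genes nor the lists of junction genes helped to define the subclusters.

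**Figure D2:**
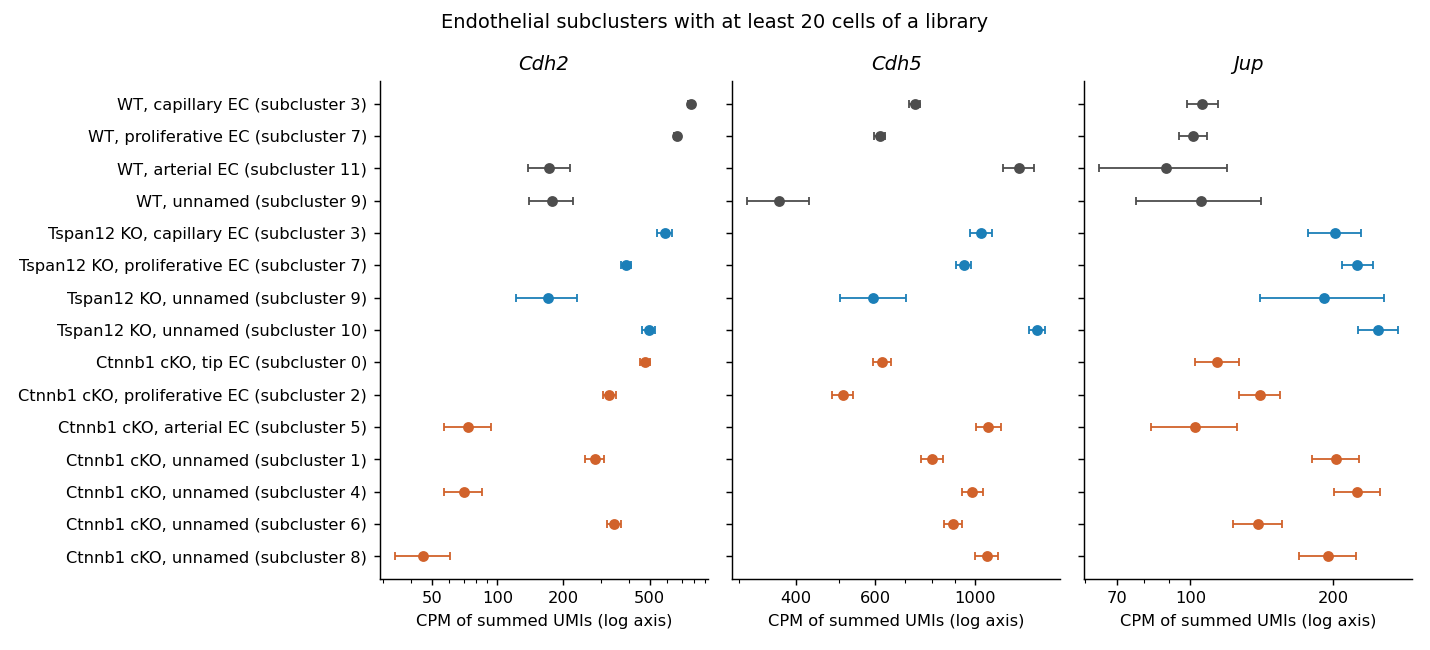
Level of Cdh2, Cdh5 and Jup, in CPM, in each EC subcluster with at least 20 cells of a library, with colours for the library and bars for the Poisson 95% interval. Cdh2 is lowest in arterial cells and in 2 unnamed Ctnnb1 cKO subclusters, at 46 to 73 CPM in that library, where Cdh5 is high at 984 to 1069 CPM.

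Within the Ctnnb1 cKO library Cdh2 varied widely between subclusters. It stood at 476 CPM in the tip subcluster and at 73 CPM in the arterial one, and it was at 70 CPM in an unnamed subcluster led by Eln and Mgp and 46 CPM in one led by Gpihbp1. Cdh5 stood at 620, 1069, 984 and 1058 CPM in the same 4, lowest in the tip subcluster, where Cdh2 was highest. Against all other ECs of the library, tip cells had a log2 ratio of 1.03 (0.94 to 1.13) for Cdh2, -0.40 (-0.47 to -0.33) for Cdh5 and -0.52 (-0.69 to -0.35) for Jup.

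Arterial cells were low in Cdh2 in both libraries that held enough of them. Against the other ECs of the same library the log2 ratio of Cdh2 was -2.003 (-2.33 to -1.69) in WT, from 173 against 695 CPM, and -2.08 (-2.45 to -1.73) in the Ctnnb1 cKO, from 72.6 against 307 CPM. Cdh5 was higher in arterial cells, by 0.92 (0.80 to 1.04) in WT and 0.50 (0.41 to 0.60) in the Ctnnb1 cKO, while Jup was lower, by -0.22 (-0.69 to 0.22) and -0.64 (-0.96 to -0.34), the first with 0 inside its interval. Arterial cells of the Ctnnb1 cKO (319) set against the 21 of WT had a log2 ratio of -1.26 (-1.74 to -0.78) for Cdh2, -1.05 (-1.41 to -0.69) for Ctnnd1 and 1.22 (0.58 to 1.91) for Ilk, but 0.17 (-0.37 to 0.72) for Jup.

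Proliferative ECs, the class present in all 3 libraries (171, 88 and 370 cells), allowed a comparison at a like state, although the WT and Tspan12 KO cells lay in one subcluster and nearly all Ctnnb1 cKO cells in another. Cdh2 was lower there in both knockouts, with log2 ratios of -0.77 (-0.86 to -0.68) and -1.02 (-1.12 to -0.92). Jup was higher, at 1.15 (1.003 to 1.29) and 0.47 (0.29 to 0.64), the second inside the limit. Cdh5 was at 0.62 (0.55 to 0.68) in the Tspan12 KO and -0.27 (-0.35 to -0.18) in the Ctnnb1 cKO, where its direction was the reverse of that over all ECs, and Ilk was at 0.22 (-0.01 to 0.44) and 0.84 (0.64 to 1.04). In the capillary subcluster, the Tspan12 KO gave -0.39 (-0.51 to -0.28) for Cdh2 and 0.49 (0.40 to 0.58) for Cdh5, both inside the limit. Jup was past it there, at 0.93 (0.71 to 1.14).

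Within each library proliferative ECs had less Cdh5 than the other ECs, by log2 ratios of -0.28 in WT, -0.34 in the Tspan12 KO and -0.72 in the Ctnnb1 cKO. Ctnnd1 was also lower, at -0.37, -0.44 and -0.22, and so was Rcbtb1, at -0.50, -0.67 and -0.44. Splitting ECs by UMIs of 12 cell cycle genes instead gave like ratios across libraries in cycling and other cells. For Cdh2 these were -0.71 and -0.57 in the Tspan12 KO and -1.13 and -1.28 in the Ctnnb1 cKO, and for Jup 1.19 and 1.11, and 0.47 and 0.60. The split by cell cycle genes moved no direction for Cdh2, Jup or Ilk.

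**Figure D3:**
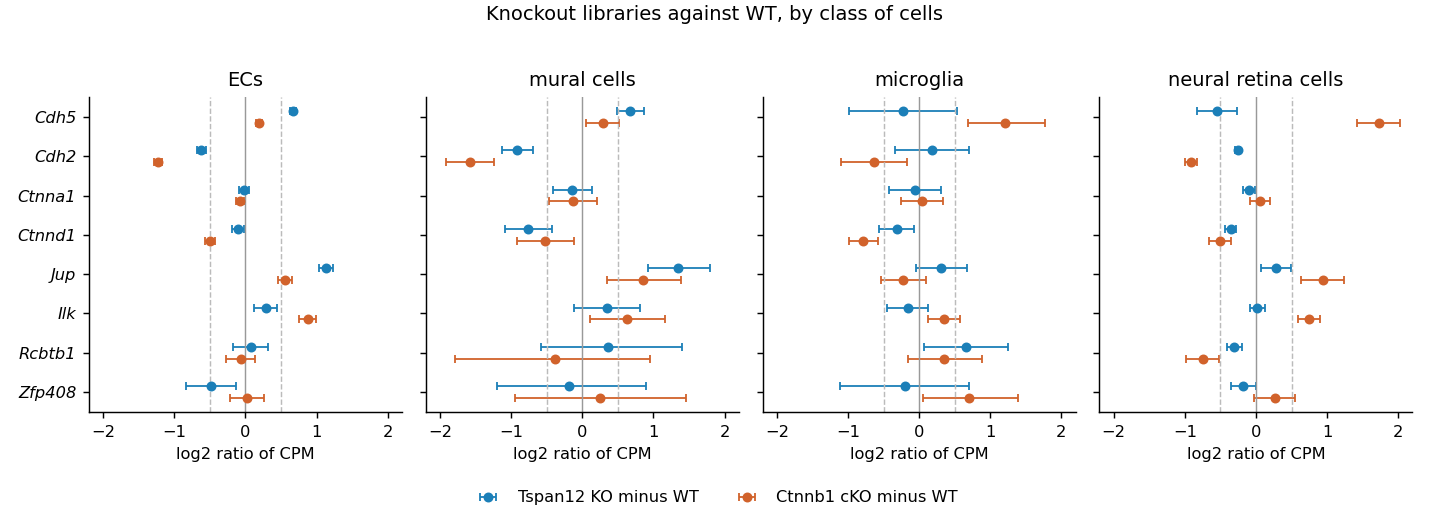
Log2 ratio of CPM against WT for each of the 8 genes in ECs, mural cells, microglia and neural retina cells, with bars for the 95% interval and dashed lines at 0.5 and -0.5. In the Ctnnb1 cKO, Cdh2 lies below -0.5 in each of the 4 classes and Ilk lies above 0, while Cdh5 lies highest in microglia and neural cells, at 1.21 and 1.72.

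The mural class, of pericytes and smooth muscle cells, carried EC markers at a level above its own markers in every library. The 10 EC markers summed to 5790, 4685 and 4877 CPM in the WT, Tspan12 KO and Ctnnb1 cKO, against 3710, 4495 and 4504 CPM for the 10 mural markers, and all markers of both lists were detected. Erythrocyte markers stood at 54.5, 3035 and 1419 CPM. The part that EC transcripts had in the mural values was not tested, and the WT values rest on 13 cells.

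In this class 2 of the 8 genes were called higher in the Tspan12 KO (18.1% of the 6880 genes tested) and 2 lower (16.1%), and in the Ctnnb1 cKO 2 were higher (21.2%) and 2 lower (32%). The medians of the 8 were 0.10 and 0.06, beside 0.01 and -0.14 for all genes, and TMM scaling moved the share of higher genes in the Ctnnb1 cKO from 39.8% to 50.5%. Cdh2 stood at 550.5 CPM in WT, 291.4 in the Tspan12 KO and 184.7 in the Ctnnb1 cKO, with log2 ratios of -0.92 (-1.14 to -0.70) and -1.58 (-1.92 to -1.25). Jup stood at 90.3, 230.6 and 164.0 CPM, with ratios of 1.35 (0.93 to 1.80) and 0.86 (0.35 to 1.38). Cdh5 stood at 516.4, 823.8 and 629.5 CPM, with ratios of 0.67 (0.49 to 0.86) and 0.29 (0.06 to 0.51). The order of the 3 libraries for Cdh5, Cdh2 and Jup was that of the ECs.

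Of the other genes in mural cells, Ctnnd1 was called lower in both knockouts, at 235.2, 138.9 and 164.0 CPM and log2 ratios of -0.76 and -0.52, the second of which was -0.01 in mural cells chosen by their markers. Ilk was called higher in the Ctnnb1 cKO, at 93.7, 118.7 and 145.1 CPM and a ratio of 0.63 (0.11 to 1.16), and had 0.34 in the Tspan12 KO. Ctnna1 had ratios of -0.14 and -0.13, Rcbtb1 0.37 and -0.39, and Zfp408 -0.18 and 0.25.

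A stricter choice of mural cells, by marker UMIs alone, left 9, 32 and 36 cells with EC marker sums of 1180, 676 and 1010 CPM and mural marker sums of 13065, 15170 and 13541 CPM. In these cells Cdh5 stood at 9.01, 17.7 and 40.8 CPM, from 1, 4 and 4 UMIs. Cdh2 kept 198, 217 and 102 CPM, from 22, 49 and 10 UMIs, and was no longer lower in the Tspan12 KO. Jup stood at 27.0, 137 and 40.8 CPM, from 3, 31 and 4 UMIs, Ctnna1 at 189, 221 and 163 CPM, and Ilk at 144, 190 and 235 CPM.

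Microglia, the resident macrophages of the retina, held little of both cadherins. Most microglia of the Ctnnb1 cKO (1808 cells) lay in a cluster with 14 WT and 15 Tspan12 KO cells, so Ctnnb1 cKO ratios here also compare clusters. In the Tspan12 KO 1 of the 8 genes was called higher (16.4% of the 11044 tested) and 0 lower (10.6%). In the Ctnnb1 cKO 2 were higher (24.3%) and 2 lower (21.5%). The medians of the 8 were -0.11 and 0.19, beside 0.08 and 0.04 for all genes, and TMM scaling moved the share of higher genes in the Tspan12 KO from 60.8% to 49.1%.

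Ctnnd1 was the most abundant of the 8 in WT and Tspan12 KO microglia, at 118.5, 95.1 and 68.9 CPM in the WT, Tspan12 KO and Ctnnb1 cKO, with a log2 ratio of -0.32 (-0.56 to -0.08) and -0.78 (-0.99 to -0.58). Ilk stood at 77.6, 69.4 and 98.7 CPM and was the most abundant in the Ctnnb1 cKO, with ratios of -0.16 (-0.45 to 0.13) and 0.35 (0.12 to 0.57). Jup stood at 44.1, 54.7 and 37.9 CPM, with ratios of 0.31 (-0.05 to 0.67) and -0.22 (-0.53 to 0.10), so the higher Jup of knockout ECs was not detectable in microglia. Ctnna1 stood at 48.5, 46.4 and 49.8 CPM, nearly level in the 3 libraries.

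In microglia Cdh5 followed the order of the EC markers over the 3 libraries, and Cdh2 did not. Cdh5 stood at 12.8, 10.9 and 29.5 CPM, with a log2 ratio of 1.21 (0.69 to 1.77) in the Ctnnb1 cKO, and the 10 EC markers summed to 166, 78.5 and 366 CPM in the same cells, all 10 detected in each library. Cdh2 stood at 22.6, 25.6 and 14.5 CPM, with ratios of 0.18 (-0.34 to 0.70) and -0.64 (-1.10 to -0.17), the second inside the limit at -0.35 with doublets kept. The part of free EC or neural RNA in these values was not tested. Rcbtb1, at 15.3, 24.1 and 19.5 CPM, was the gene called higher in the Tspan12 KO, by 0.66 (0.07 to 1.25) from 42 and 64 UMIs, and Zfp408, at 9.11, 7.92 and 14.8 CPM, was called higher in the Ctnnb1 cKO, by 0.70 (0.06 to 1.39).

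The neural retina cells, pooled, held Cdh2 as their main cadherin. In the Tspan12 KO 0 of the 8 genes were called higher (6.24% of the 16060 tested) and 1 lower (13.9%), and in the Ctnnb1 cKO 3 were higher (16.1%) and 3 lower (35.3%). The medians of the 8 were -0.22 and 0.16, beside -0.07 and -0.22 for all genes. TMM scaling moved the share of higher genes from 31.0% to 42.3% in the Tspan12 KO and from 31.8% to 48.4% in the Ctnnb1 cKO. Most Ctnnb1 cKO rods (1462 cells) lay in a rod cluster that held 52 WT and 229 Tspan12 KO cells. The other rod clusters held 735 and 693 WT cells, but 55 and 13 of the Ctnnb1 cKO. The Ctnnb1 cKO ratios in rods given below therefore also compare clusters.

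Cdh2 stood at 441.1 CPM in WT, 369.7 in the Tspan12 KO and 234.5 in the Ctnnb1 cKO, with log2 ratios of -0.25 (-0.29 to -0.22) and -0.91 (-0.99 to -0.83). The makeup of the class entered this value, since giving each neural class equal weight moved the ratios to 0.04 and -0.44. By class, the Ctnnb1 cKO had a Cdh2 ratio of -0.56 (-0.68 to -0.44) in rods, -0.53 (-0.86 to -0.22) in bipolar cells, -0.52 (-0.73 to -0.32) in amacrine cells and -0.59 (-0.81 to -0.37) in retinal progenitors, and of 0.03 in neurogenic precursors. The Tspan12 KO ratio was 0.02 (-0.05 to 0.09) in rods, 0.27 (0.18 to 0.35) in amacrine cells and -0.11 (-0.21 to -0.01) in progenitors. In the Ctnnb1 cKO the Cdh2 ratio was thus past the limit in ECs and, narrowly, in rods, bipolar cells, amacrine cells and progenitors. The median of all genes in the pooled neural cells was -0.22 there, and 35.3% were called lower. TMM scaling, which moved that median to 0.00, was not run for single neural classes. Cones, with 23 cells in the Ctnnb1 cKO library, also had a lower Cdh2 level than in WT. The cause was not tested in any of these classes.

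**Figure D4:**
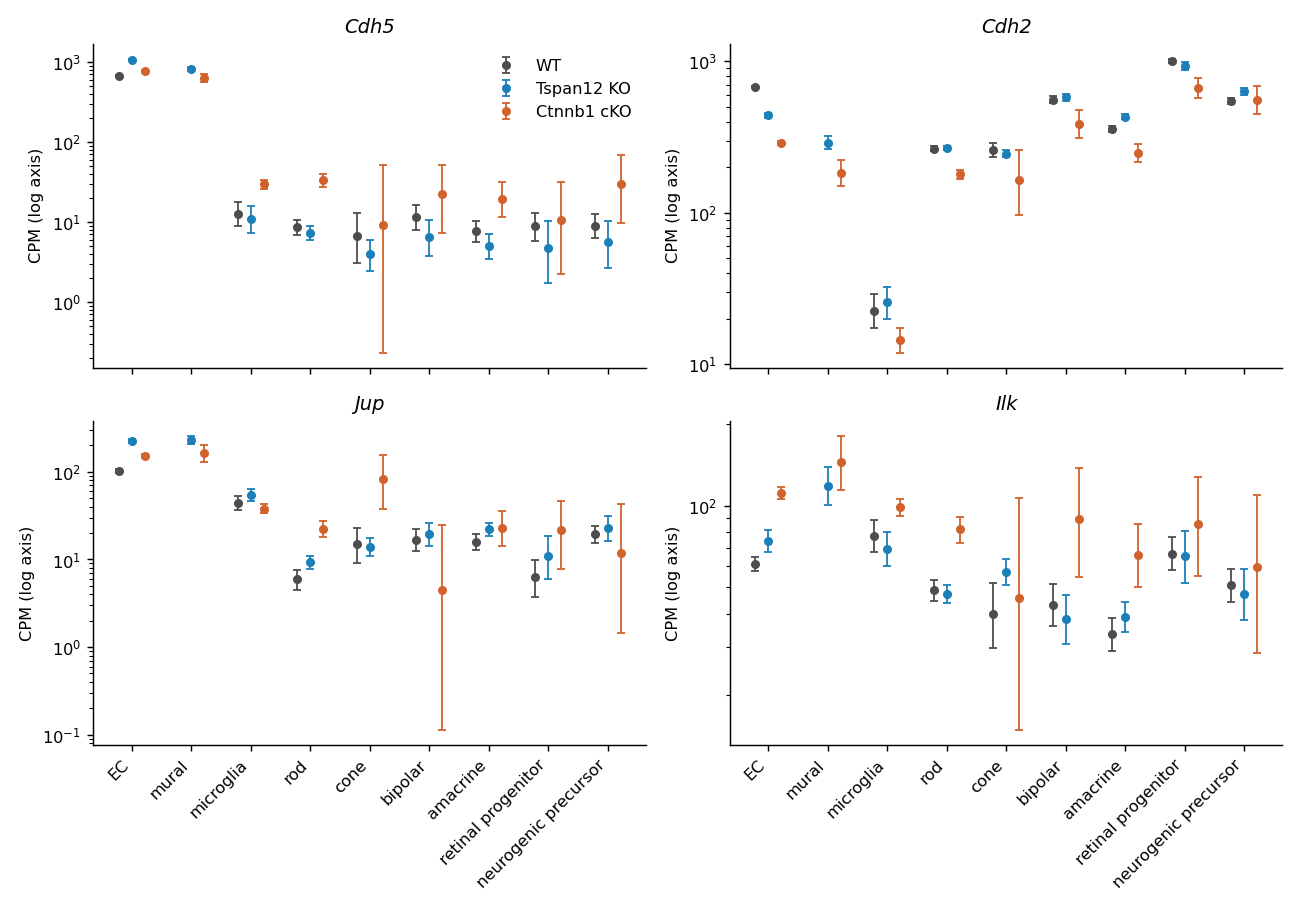
Level of Cdh5, Cdh2, Jup and Ilk, in CPM on a log axis, in ECs, mural cells, microglia and the neural classes, with a point where a library held at least 20 cells of the class. Cdh5 is highest in ECs and mural cells and at most 33.1 CPM in the microglia and neural classes, and Cdh2 is highest in retinal progenitors in all 3 libraries.

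Across the named classes Cdh2 was highest in retinal progenitors, at 1006, 931.4 and 669.5 CPM in the WT, Tspan12 KO and Ctnnb1 cKO. Neurogenic precursors had 546.6, 633.1 and 559.9 CPM, bipolar cells 559.4, 577.9 and 388.0 CPM, and amacrine cells 359, 431.9 and 250.01 CPM. Rods, at 265, 268.4 and 179.4 CPM, and cones, at 261.4, 245.2 and 164.6 CPM, had the lowest Cdh2 of the neural classes and had overlapping counting intervals in WT and the Ctnnb1 cKO. ECs came next after progenitors in WT, and after progenitors, precursors and bipolar cells in both knockouts.

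Cdh5 in neural cells was low and moved with EC markers. It stood at 8.75, 6.001 and 28.9 CPM over all neural cells, with log2 ratios of -0.54 (-0.83 to -0.26) and 1.72 (1.43 to 2.02), and the EC markers summed to 230, 134 and 414 CPM in the same cells. The Tspan12 KO ratio turned to 0.23 as a mean of per-cell CPM. In rods it stood at 8.65, 7.38 and 33.1 CPM, in bipolar cells at 11.6, 6.50 and 22.3 CPM and in amacrine cells at 7.74, 5.01 and 19.7 CPM. Astrocytes (21, 48 and 22 cells), which are not counted as neural cells here, had 11.6, 116.4 and 105.7 CPM, from 2, 72 and 6 UMIs. ECs were 32.0% of the cells in the Ctnnb1 cKO library against 5.99% in WT, and the part of free EC RNA in the neural values was not tested.

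Jup in neural cells stood at 11.8, 14.4 and 22.6 CPM, giving log2 ratios of 0.29 (0.08 to 0.50) and 0.94 (0.63 to 1.24). In rods it stood at 5.93, 9.26 and 22.4 CPM, with ratios of 0.64 (0.19 to 1.11) and 1.92 (1.43 to 2.42). In rods there were 68.6, 125 and 67.7 Jup UMIs per 100 of Cdh5, against 15.2, 21.0 and 19.7 in ECs. The part of free EC RNA in the Jup of rods was not tested.

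Ilk was called higher in Ctnnb1 cKO neural cells, from 46.7 CPM in WT and 47.3 in the Tspan12 KO to 78.5 CPM, with ratios of 0.02 (-0.09 to 0.13) and 0.75 (0.59 to 0.91). By class the Ctnnb1 cKO ratio was 0.75 (0.54 to 0.95) in rods, 1.05 (0.29 to 1.74) in bipolar cells and 0.97 (0.52 to 1.40) in amacrine cells, close to the 0.87 of ECs. In the Ctnnb1 cKO the log2 ratio of Ilk was above 0 in ECs, mural cells, microglia and neural cells alike. In both knockouts mural cells held the most Ilk and ECs came next.

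Rcbtb1 was a gene of neural more than vascular cells in WT and lower in the Ctnnb1 cKO. It stood at 51.4, 41.7 and 30.5 CPM over neural cells, with ratios of -0.30 (-0.41 to -0.19) and -0.75 (-0.99 to -0.52). Bipolar cells had 68.4, 50.8 and 8.92 CPM, the last from 2 UMIs, and rods had 58.9, 41.5 and 29.8 CPM, with rod ratios of -0.50 (-0.67 to -0.34) and -0.98 (-1.28 to -0.69). Bipolar cells, rods, amacrine cells, precursors and cones all stood above ECs in WT.

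The other members differed less in neural cells. Ctnnd1 stood at 102.9, 80.5 and 72.5 CPM, with ratios of -0.35 (-0.43 to -0.28) and -0.50 (-0.66 to -0.35), the last past the limit but at -0.29 under TMM scaling and -0.08 with equal weight of the classes. Ctnna1 stood at 89.7, 83.8 and 93.2 CPM, with ratios of -0.10 (-0.18 to -0.02) and 0.06 (-0.08 to 0.19), and ECs held the highest level of it in all 3 libraries. Zfp408 stood at 19.6, 17.3 and 23.5 CPM, with ratios of -0.18 and 0.26 (-0.02 to 0.54), and was highest in bipolar cells in WT and the Tspan12 KO, at 26.6 and 22.0 CPM.

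The other genes of the junction were taken as lists by role and counted in ECs in the same way, against the 13.1% to 30.3% of all genes called. Of the 9 other cadherins, 6 were tested, with 1 higher and 1 lower in the Tspan12 KO and 0 higher and 2 lower in the Ctnnb1 cKO, and medians of 0.21 and -0.18. Cdh11, a cadherin of mesenchymal cells, was lower in both, at 63.5, 19.8 and 9.77 CPM, giving log2 ratios of -1.68 (-1.96 to -1.41) and -2.70 (-2.98 to -2.43). It was also called lower in mural and neural cells of both knockouts and in Ctnnb1 cKO microglia, but higher in Tspan12 KO microglia. Of the 6 other catenins and armadillo proteins, 5 were tested, with 0 higher and 1 lower, and 0 higher and 3 lower, and medians of -0.13 and -0.77. Ctnna2, the neural α-catenin, was lower in both at 12.1, 6.97 and 2.66 CPM, and Ctnnb1 had ratios of 0.23 and -0.24. Ctnna2 was also called lower in neural cells of both knockouts and in microglia of the Ctnnb1 cKO.

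**Figure D5:**
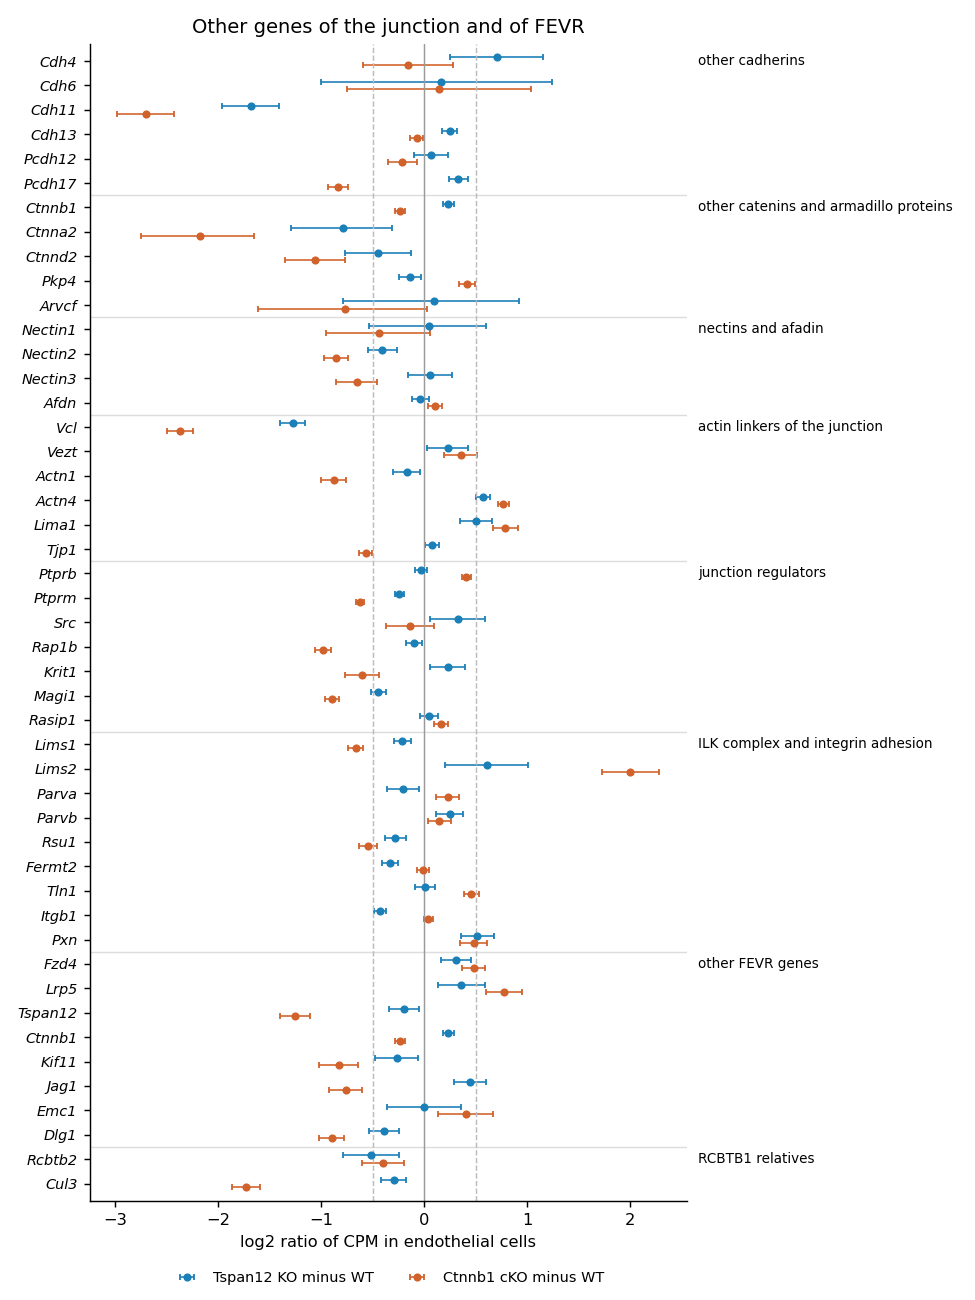
Log2 ratio of CPM against WT in ECs for each tested gene of the junction, integrin adhesion and FEVR lists, 1 point per gene and library, with dashed lines at 0.5 and -0.5. Cdh11 and Vcl lie far below the other points of their lists in both libraries, and Lims2 lies highest in the Ctnnb1 cKO, at 2.001.

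Among the 6 actin linkers of the junction, 2 were higher and 1 lower in the Tspan12 KO, and 2 higher and 3 lower in the Ctnnb1 cKO, with medians of 0.15 and -0.11. Vcl, which encodes vinculin, an actin linker of strained junctions and integrin adhesions, was lower in both, at 244, 101 and 47.4 CPM, giving log2 ratios of -1.28 (-1.40 to -1.16) and -2.37 (-2.49 to -2.24). Actn4, an α-actinin, was higher in both at 295, 437 and 502 CPM, as was Lima1 at 61.9, 87.7 and 107 CPM. Vcl was also called lower in mural cells, microglia and neural cells of both knockouts.

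Of the 4 nectins and afadin, none passed the limit in the Tspan12 KO, and 0 were higher and 2 lower in the Ctnnb1 cKO, with medians of 0.00 and -0.55. Of the 7 junction regulators, none passed it in the Tspan12 KO, and 0 were higher and 4 lower in the Ctnnb1 cKO, with medians of -0.03 and -0.60. Of the 9 genes of the ILK complex and integrin adhesion, 2 were higher and 0 lower in the Tspan12 KO, and 1 higher and 2 lower in the Ctnnb1 cKO, with medians of -0.21 and 0.15. Lims2, which encodes a PINCH partner of ILK, was higher in both, at 8.82, 13.5 and 35.3 CPM, with ratios of 0.61 and 2.001 (1.73 to 2.28).

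Of the 10 other FEVR genes, 8 were tested, with none past the limit in the Tspan12 KO, and 1 higher and 4 lower in the Ctnnb1 cKO, and medians of 0.12 and -0.50. The gene called higher was Lrp5, the Norrin co-receptor, and the 4 lower were Tspan12, Kif11, Jag1 and Dlg1, named after their values were seen. Of the 2 RCBTB1 relatives, Rcbtb2 and Cul3, 0 were higher and 1 lower in each library, with medians of -0.40 and -1.07.

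As a description of how the genes ran together, the log CPM (with 5 added) of each was correlated with that of 18038 genes over the 36 points given by class and library, which share libraries, depth and free RNA. The genes most like Cdh5 were Tm4sf1 and Esam (Pearson's r of 0.98 each), then Plvap, Tmem252 and Nid1 (0.96 each). Those most like Cdh2 were Cfl2 and Nfib (0.91 each), then Eny2, Stox2 and Adgrl3 (0.90 each). Those most like Jup were Fam167b, Arhgap27os1, Tmem204 and Bcl6b (0.85 each) and Slc39a8 (0.84). Among the 8 genes, Cdh5 ran most closely with Jup (0.75), then with Ctnna1 (0.64) and Ilk (0.55), whereas Cdh2 had 0.02 with Cdh5, -0.22 with Jup, 0.48 with Rcbtb1 and 0.45 with Ctnnd1.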

How the data were processed

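Single-cell suspensions of pooled retinas were profiled with 10x 3′ v3 chemistry. Counts of UMIs per gene and cell were deposited by the authors from Cell Ranger, version 8.0.1 per the file headers, and the submitters' processing notes give the build GRCm39, whereas the methods give another version and mm10. Barcodes under 250 genes or 500 UMIs, or with over 15% of UMIs from mitochondrial genes, were dropped. Scrublet doublets (0.8% per 1000 cells) were removed, leaving 8989, 12732 and 8451 cells. Cells were clustered with scanpy 1.11.5 and leidenalg 0.10.2 (2000 variable genes, 30 components, 20 neighbours, resolution 1) into 32 clusters, named from fixed markers of 19 classes. No integration of the libraries was applied, whereas the paper used Harmony. The 8 genes and the junction lists were kept out of the variable genes and markers. UMIs were summed by class and library. Shares used cells thinned to 2000 UMIs. No test was run, with 1 library per genotype, and the pipeline was tested on simulated data. TMM factors came from edgeR 4.0.16. Besides the 8 genes, list genes were named if past the limit in both knockouts in ECs, or if Ctnnb1 or Tspan12, and genes named outside this rule are marked as such. The genes, lists and markers were chosen with earlier results of these data known.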

Additional observations from a re-analysis of the deposited data

Results flagged for a closer look

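Cdh5 in the Tspan12 KO had a log2 ratio of 0.67 against WT in ECs and of -0.54 in neural retina cells, a difference of 1.21 between opposite directions. EC marker sums in the neural cells of the 2 libraries were 134 CPM in the Tspan12 KO and 230 CPM in WT. The difference was not tested.

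Rcbtb1 in the Tspan12 KO had a log2 ratio of 0.66 in microglia and of -0.50 in rods, a difference of 1.16. The microglial value rests on 42 UMIs in WT and 64 in the Tspan12 KO, and the difference was not tested.

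Cells of clusters that were not named, which entered no comparison of the report, had more Cdh5 in the Ctnnb1 cKO than in WT, at 19.7 against 7.85 CPM and a log2 ratio of 1.33 (95% interval 0.95 to 1.69).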

How the results depend on the processing

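No paired analysis was possible because each group had 1 library. The number of the 8 genes past the limit was within 1.5 times its reported value in 72 of the alternatives run over the 8 comparisons and moved in 18. Genes of the 8 below the UMI limit in the cells used were not counted. With a limit of 1 on the log2 scale the count went from 3 to 1 in ECs of each knockout. It went from 1 to 0 in microglia and neural cells of the Tspan12 KO. It went from 4 to 1 in Ctnnb1 cKO microglia and in mural cells of each knockout, and from 6 to 1 in Ctnnb1 cKO neural cells. At that limit 338 of all 13209 EC genes were higher and 673 lower in the Tspan12 KO, and 1113 and 1705 in the Ctnnb1 cKO. In microglia these were 356 and 345, and 1008 and 932, of 11044 genes. In mural cells they were 383 and 256, and 564 and 979, of 6880. In neural cells they were 124 and 490, and 1107 and 2651, of 16060. Without the EC subclusters mostly of 1 library the count went from 3 to 5 in the Ctnnb1 cKO, from 20 cells left in that library. There 3792 of 12004 genes were higher and 1917 lower. The ratio of Jup turned to -0.73 in these 20 cells, which were set against all 538 WT ECs. A draw of the thinning took the count from 1 to 4 in Tspan12 KO microglia, where 2022 of 8392 genes were higher and 1203 lower. The expected value over draws, added after seeing the data, took it from 4 to 1 in mural cells of the Tspan12 KO. In mural cells of the Ctnnb1 cKO it went from 4 to 2. Only 841 mural genes were tested there, with 140 higher and 121 lower in the Tspan12 KO, and 229 and 234 in the Ctnnb1 cKO. Choosing mural cells by markers took the count from 4 to 2 in each knockout. Of 1369 genes tested there, 268 were higher and 233 lower in the Tspan12 KO, and 320 and 476 in the Ctnnb1 cKO. Choosing mural cells without the marker Apoe, an alternative chosen after seeing the data, took the count from 4 to 1 in the Tspan12 KO. It went from 4 to 2 in the Ctnnb1 cKO, and the ratio of Cdh2 in the Tspan12 KO turned to 0.13. Of 1551 genes tested there, against 6880 in the reported class, 290 were higher and 279 lower, and 352 and 529. Cdh5 (1, 4 and 4 UMIs), Jup (3, 31 and 4), Rcbtb1 (2, 3 and 1) and Zfp408 (2, 3 and 3) were below the UMI limit and not counted. In neural cells of the Tspan12 KO, TMM scaling and the mean of per-cell CPM each took the count from 1 to 0, and the latter turned the ratio of Cdh5 to 0.23. Of 16060 genes, 1323 were higher and 1801 lower under TMM scaling, and 1582 and 2097 with the mean of per-cell CPM. The cause was not tested in any of these. In ECs the ratio of Cdh2 ran from -0.42, in a draw of the thinning, to -0.77 in the Tspan12 KO and from -0.16, in the 20 cells, to -1.33 in the Ctnnb1 cKO over all alternatives. The marker choice of microglia was not run, because it left 2, 3 and 19 cells. The mural values of WT rest on 13 cells.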
